A study of Homo sapiens with 2 samples.

Results

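The genes described here encode the transcription factors around MYC other than MYC itself. They comprise 10 genes, MYCN, MYCL, MAX, MXD1, MXD3, MXD4, MXI1, MNT, MGA and MLX, taken by name out of the 19866 protein-coding genes that RefSeq places on the assembled human chromosomes. Each was examined for peaks of lactylated histone H3 within 1000 bp of either gene end, inside the gene, and within 50000 bp of it, which gave 53 of the 28695 peaks deposited. The study mapped histone H3 lactylated at lysine 18 (H3K18la) by chromatin immunoprecipitation and sequencing in H1299, an established human non-small cell lung cancer line without functional p53. It holds 1 library made with an anti-H3K18la antibody and 1 input library from the same line, and the deposited peak list of the anti-H3K18la library was analysed here. The study's design text names an IgG group where the labels name input, and which library the peaks were called against is not given in the sources used here. Peak names in the deposited list start with NC, an abbreviation without explanation in the labels. With 1 library per group there is no replicate, so no difference between genes below has an error across libraries and no p-value is given. Coordinates are those of build hg38.

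MYC proteins bind DNA as heterodimers with MAX, at the E-box CACGTG, and activate genes of growth and metabolism. The MXD proteins, MNT and MGA compete for MAX and repress the same kind of site, the MXD proteins and MNT through SIN3 and histone deacetylases and MGA as part of a variant Polycomb complex, PRC1.6. MLX is a counterpart of MAX that pairs with MXD1, MXD4 and MNT and with the glucose-sensing factors MondoA (MLXIP) and ChREBP (MLXIPL). MYC family genes are amplified, and MAX and MGA inactivated, in some lung cancers.

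Peaks lay at the 5′ end of 9 of the 10 genes, and MYCN alone had none. The 9 genes were the dimerization partner MAX, the repressors MXD1, MXD3, MXD4, MXI1, MNT and MGA, the MAX counterpart MLX, and MYCL, whose peak was weak. The share was 90% (exact Clopper-Pearson 95% interval 55.5 to 99.7%, counting error only), and among the 15842 protein-coding genes whose strand is known 59.5% had a peak within 1000 bp of the 5′ end. Within 1000 bp of either end the count was also 9 of 10, against 59.1% of all protein-coding genes. The 3′ end held a peak in 1 gene, MXD3, against 7.62% of genes with a known strand. With the gene body and 1000 bp on each side counted the number was again 9 of 10, against 66.7% of protein-coding genes, and within 50000 bp it was 9 of 10 as well, against 83.1%. The interval of the 9 of 10 reached below each of the shares set beside it, so the counts do not set the network apart from other genes. Near the 1000 bp limit, the stronger 5′ peak of MXD1 (540 bp from the end) and the 3′ peak of MXD3 (542 bp) were inside it, and a peak 1644 bp beyond the 3′ end of MYCL was outside.

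The promoter sequences below show where the E-box lies in the members that hold it just before the start. They also show the bases before the starts of MXD1, MYCL and MYCN, which were outside a peak. The first start of MXI1, also outside a peak, is not shown. They are the 250 bases before the annotated start, 5′ to 3′ on the strand of the gene, from the RefSeq promoter table (GRCh38.p14), in which all 10 genes were found, with CACGTG in capitals. MNT lies on the minus strand at chr17:2401061-2401310, MXD4 on the minus strand at chr4:2262110-2262359 and MLX on the plus strand at chr17:42566850-42567099, and all of these bases were covered by a peak. MXD1 (plus strand, chr2:69914859-69915108) lies in a gap between 2 peaks. MYCL (minus strand, chr1:39901918-39902167) lies outside its weak peak, and MYCN (plus strand, chr2:15940300-15940549) has no peak nearby.
MNT: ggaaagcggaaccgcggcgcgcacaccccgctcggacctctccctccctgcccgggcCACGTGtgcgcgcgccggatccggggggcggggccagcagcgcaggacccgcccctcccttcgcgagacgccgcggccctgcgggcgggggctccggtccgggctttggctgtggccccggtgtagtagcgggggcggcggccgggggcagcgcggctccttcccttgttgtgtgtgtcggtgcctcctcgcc
MXD4: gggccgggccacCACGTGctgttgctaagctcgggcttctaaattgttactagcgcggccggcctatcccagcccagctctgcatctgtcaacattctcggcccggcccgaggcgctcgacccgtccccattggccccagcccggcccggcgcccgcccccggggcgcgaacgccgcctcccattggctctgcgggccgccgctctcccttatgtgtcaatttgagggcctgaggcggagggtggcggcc
MLX: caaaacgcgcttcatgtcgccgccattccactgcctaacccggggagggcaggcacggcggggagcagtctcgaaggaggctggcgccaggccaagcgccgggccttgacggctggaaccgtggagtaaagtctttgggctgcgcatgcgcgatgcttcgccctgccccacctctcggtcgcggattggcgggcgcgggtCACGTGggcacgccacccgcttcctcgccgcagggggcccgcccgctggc
MXD1: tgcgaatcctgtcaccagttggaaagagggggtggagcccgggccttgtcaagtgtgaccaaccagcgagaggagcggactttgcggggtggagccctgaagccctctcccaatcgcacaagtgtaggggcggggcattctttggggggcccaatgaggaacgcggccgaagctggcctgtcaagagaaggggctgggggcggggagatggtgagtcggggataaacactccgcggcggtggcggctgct
MYCL: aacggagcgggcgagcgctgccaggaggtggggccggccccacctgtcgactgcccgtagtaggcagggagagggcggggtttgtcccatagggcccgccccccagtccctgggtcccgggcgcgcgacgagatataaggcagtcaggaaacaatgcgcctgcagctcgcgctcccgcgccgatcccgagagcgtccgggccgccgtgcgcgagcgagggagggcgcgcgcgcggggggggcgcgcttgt
MYCN: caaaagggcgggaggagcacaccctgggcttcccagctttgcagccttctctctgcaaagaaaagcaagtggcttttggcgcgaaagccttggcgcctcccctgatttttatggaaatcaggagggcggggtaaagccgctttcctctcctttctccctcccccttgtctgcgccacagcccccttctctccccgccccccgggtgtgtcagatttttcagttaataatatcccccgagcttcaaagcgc

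The first base of CACGTG stood 193 bases before the start in MNT, 238 bases before it in MXD4 and 50 bases before it in MLX. The motif reads the same on both strands. In the full promoters of 300 bases (250 before and 50 after the start), CACGTG occurred at 3 of the 15 annotated starts of the network, against 8.34% of 22175 starts of protein-coding genes. Of all coding starts inside a peak 10.3% held it, and of starts with no peak within 1000 bp 5.85% did. The related sequence CACGCG, searched on both strands, was found at MXD3, at the innermost start of MXI1 and at the first inner start of MGA, which makes 3 of 15 starts against 14.2% of all. The GC box GGGCGG was present at 12 of 15 starts, against 56.3% of all. The E2F-like sequence GCGGGAA was found at 0 of 15, against 8.13% of all. Of the 15 starts, 11 lay inside a peak. Among all coding starts inside a peak, 20.1% held CACGCG, 75.3% the GC box and 11.4% GCGGGAA. A match of letters is a description of the sequence and not a bound site.

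MAX, the partner of every MYC dimer (NCBI gene 4149, chromosome 14, 65006101 to 65102695, minus strand), had a 5′ peak of 952 bp and 5.44-fold. Fold enrichment is the ratio over the local background that the authors' peak caller gave for the peak, and -log10 q is its significance after the caller's correction for multiple testing. The peak (65101532 to 65102483, -log10 q 12.2) began 212 bp inside the outermost gene end and contained both annotated starts, at 65102283 and 65101684. A second peak of 3.67-fold lay within the gene (65047593 to 65049040), where MAX overlaps FNTB, so that it cannot be given to either gene. Its 5′ fold was close to the median of the 9430 protein-coding genes with a 5′ peak, 5.59-fold (quartiles 4.39 and 7.10).

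The MXD repressors, some of which replace MYC on MAX as cells differentiate, had highest 5′ peaks between 5.25-fold and 6.59-fold that differed in width and position. MXD4 (NCBI gene 10608, chromosome 4, 2247432 to 2262109, minus strand) had 6.59-fold over 2193 bp, reaching from 1003 bp before to 1189 bp after its start (2260920 to 2263112, -log10 q 24.8). MXI1 (NCBI gene 4601, chromosome 10, 110207605 to 110287365, plus strand) had 5.91-fold over 3353 bp, wider than the 5′ peaks of 93.7% of genes that have one (110207630 to 110210982). MXD3 (NCBI gene 83463, chromosome 5, 177305499 to 177312752, minus strand) had 5.45-fold over 1979 bp, from 359 bp before to 1619 bp after its start. The highest peak at an end of MXD3, of 7.15-fold over 1832 bp (177303126 to 177304957), lay 542 bp beyond its 3′ end, at the ends of RAB24 and PRELID1 (the gene itself overlaps PRELID1). MXD1 (NCBI gene 4084, chromosome 2, 69915109 to 69942945, plus strand) had the narrowest of these highest peaks, 632 bp at 5.25-fold.

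At MXD1 listed peaks stood on either side of the start, with none on it. The stronger peak (69913938 to 69914569, -log10 q 10.5) ended 540 bp before the start at 69915109. A weaker one of 2.36-fold and 305 bp (69915303 to 69915607, -log10 q 1.70) began 194 bp after it. A start outside every peak with a peak within 1000 bp on both sides was found at 216 of 22175 coding starts (0.974%). None of the 300 promoter bases of MXD1 was covered, and the gap rests on a weak second peak, which was lost at -log10 q of at least 5.

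MXI1 and MGA have several annotated starts, and peaks lay at the inner ones too. In MXI1 the first start, at 110207605, was 25 bp before the edge of the wide peak, and the second, at 110210231, was inside it. The third start, at 110225996, had a separate peak of 5.35-fold and 987 bp (110225462 to 110226448). Weaker peaks of 3.06-fold and 3.46-fold lay on either side of it inside the gene. In MGA (NCBI gene 23269, chromosome 15, 41621224 to 41769940), the first start carried 7.56-fold over 1736 bp (41620774 to 41622509, -log10 q 22.8). This was the highest 5′ fold of the network and ranked 1899 among the 9430 genes. The inner starts of MGA, at 41660405 and 41660747, shared a peak of 4.83-fold and 2414 bp (41659913 to 41662326). The first peak of MGA also lay at the end of the noncoding gene LOC105370791, with which MGA overlaps.

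MNT (NCBI gene 4335, chromosome 17, 2384073 to 2401060, minus strand), a broadly expressed repressor that binds MAX, had the widest 5′ peak, 4270 bp at 6.39-fold (2398435 to 2402704, -log10 q 20.1). It reached from 1644 bp before to 2625 bp after the start, where the medians over all coding starts inside a peak were 727 bp and 769 bp. Its width exceeded that of 96.6% of 5′ peaks. The gene held 2 further peaks, of 5.51-fold over 1878 bp and of 9.02-fold over 2658 bp (2392086 to 2394743, -log10 q 34.6). The last lay 6317 to 8974 bp after the start and had a higher fold than the promoter peak. Among the 5 network genes with a 5′ peak and another peak inside the gene, MNT alone had the inner one higher, and 969 of 2995 protein-coding genes in that position (32.4%) did so. Outside the gene, peaks of 3.85-fold and 5.25-fold began 3191 bp and 4528 bp before the start, and the farther one lay at the noncoding gene LOC284009.

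MLX (NCBI gene 6945, chromosome 17, 42567100 to 42573203) had 6.95-fold over 1358 bp, from 466 bp before to 891 bp after its start (42566634 to 42567991, -log10 q 14.5). The same peak lay at an end of COASY, a coenzyme A synthesis gene, and could belong to either. MLX had no peak inside the gene other than this one.

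MYCL and MYCN, the MYC paralogues known from small cell lung cancer and neuroblastoma, stood at the bottom of the order. MYCL (NCBI gene 4610, chromosome 1, 39895428 to 39901917, minus strand) had 2.66-fold over 446 bp with a -log10 q of 2.26 (39901431 to 39901876). This placed it at rank 9403 of 9430, and the peak began 41 bp after the start. A stronger peak of 4.34-fold and 1534 bp lay 1644 bp beyond its 3′ end, inside the antisense gene MYCL-AS1, and ChIP signal has no strand. MYCN (NCBI gene 4613, chromosome 2, 15940550 to 15947004) had no listed peak within 50000 bp, whereas 83.1% of protein-coding genes had at least 1 in the same range. Its nearest listed peaks lay 348094 bp away at DDX1 (6.17-fold) and 1806193 bp away at SMC6 and GEN1 (5.63-fold), and 680 of 19821 protein-coding genes on chromosomes with listed peaks (3.43%) were at least as far from a peak. The depth of the libraries is unknown, so that MYCN is described as having no listed peak and not as lacking the mark. MYC itself had a peak of 6612 bp and 4.72-fold at an end.

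**Figure D1:**
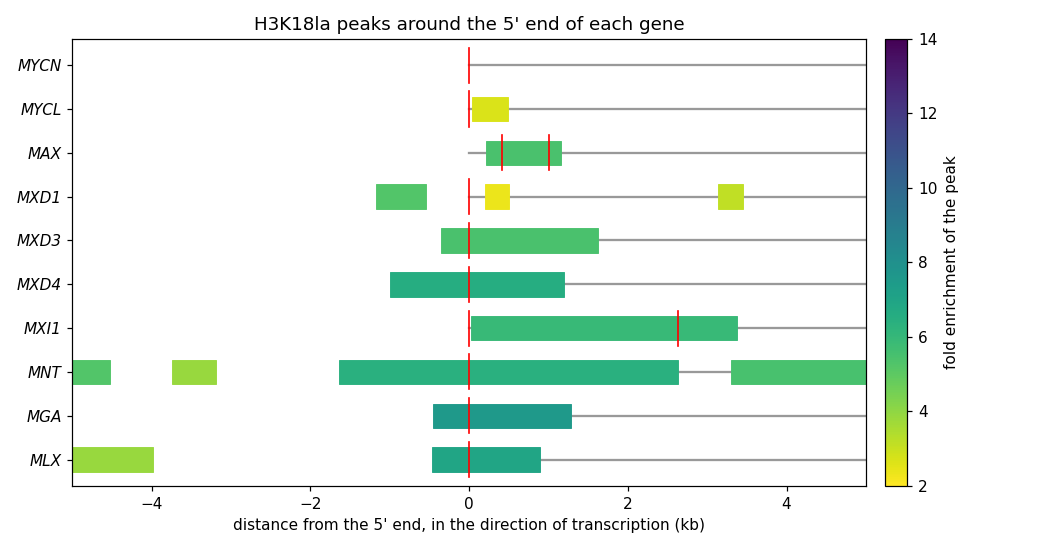
Peaks within 5 kb of the outermost 5′ end of each gene, drawn as boxes coloured by fold enrichment, on an axis of distance in kb in the direction of transcription. Grey lines are the genes and red ticks the annotated starts. The MNT peak of 4270 bp is the widest across a start, the MXD1 start lies between peaks, the MYCL box is yellow (2.66-fold), and the MYCN row is empty.

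The order of the 5′ fold was MGA (7.56), MLX (6.95), MXD4 (6.59), MNT (6.39), MXI1 (5.91), MXD3 (5.45), MAX (5.44), MXD1 (5.25) and MYCL (2.66), with no value for MYCN. The spread between libraries is not known, so that neighbours in this order cannot be told apart. The median over the 9 genes was 5.91-fold, and over all protein-coding genes with a 5′ peak 5.59-fold. Widths had a median of 1736 bp in the 9 genes and 1410 bp over all. The fold of MGA exceeded that of 79.9% of genes with a 5′ peak, and MYCL stood at percentile 0.297.

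**Figure D2:**
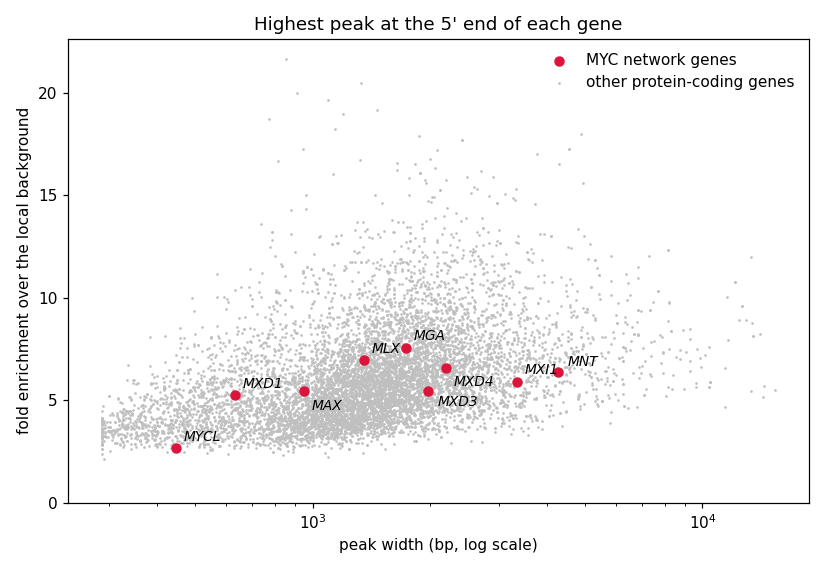
Fold enrichment against width (bp, log scale) of the highest 5′ peak of each protein-coding gene, with the 9 network genes in red and the others in grey. The network genes other than MYCL sit in the body of the cloud between 5.25-fold and 7.56-fold, with MXI1 and MNT on its wide side.

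Of the 15 annotated starts of the 10 genes, 11 lay inside a peak (73.3%, 44.9 to 92.2%), against 49% of 22175 coding starts. These starts are not independent, since both starts of MAX share a peak and so do the inner starts of MGA, which leaves 9 peaks at the 11 starts. Another 3, those of MYCL and MXD1 and the first of MXI1, lay outside a peak but within 1000 bp of one. The start of MYCN had none. Among all coding starts with a peak within 1000 bp, 16.8% were outside it.

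MYCL, the gene with the lowest fold when the highest 5′ peak of each gene is taken, had one of the most CpG-rich promoters of the network. The CpG ratio, the number of CG dinucleotides over that expected from the C and G content, was 1.05 at MYCL and 0.546 at MYCN. It was 0.979 at MLX, 0.944 at MXD4 and 0.924 at MNT. The ratio at MYCL was higher than at 93.5% of coding starts. MXD3 had the lowest of the network, 0.437, with its start inside a peak of 5.45-fold. Across all coding starts the median was 0.859 inside a peak (quartiles 0.738 and 0.964) and 0.332 with no peak within 1000 bp (0.174 and 0.656). The G+C content was 58.7% at MYCN and 55% at the first start of MXI1, both outside a peak, and from 60.7% (MXD3) to 76% (MNT) at the starts inside one. MYCL, with 74.7%, and MXD1, with 65%, were outside a peak at G+C contents in the range of those inside.

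**Figure D3:**
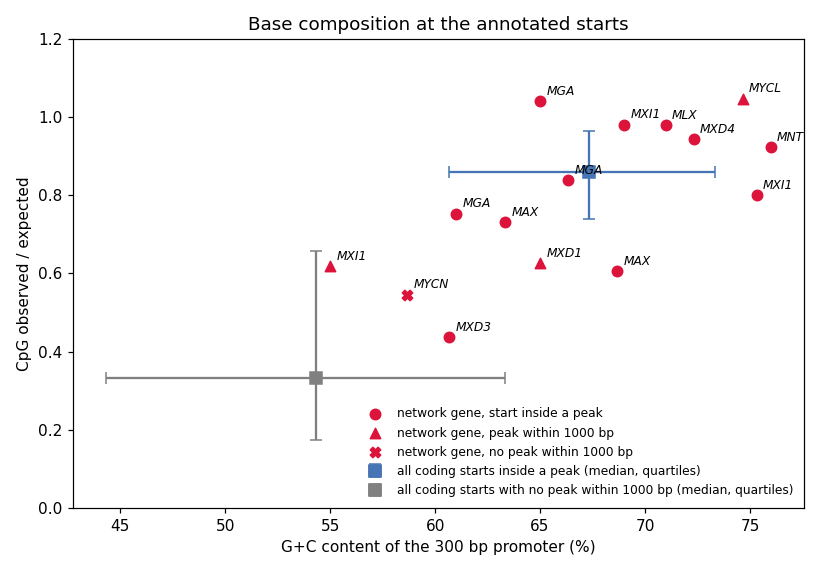
G+C content (%) and CpG observed over expected of the 300 bp promoter at the 15 starts of the network (red; circles inside a peak, triangles within 1000 bp of one, cross with none). Squares with bars are medians and quartiles of all coding starts inside a peak (blue) and with no peak within 1000 bp (grey). MYCL lies at the upper right with its start outside a peak, and MXD3 is the lowest circle.

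Within 50000 bp of the genes, the 53 peaks were spread unevenly. There were 11 around MLX, 10 around MXI1, 8 around MGA, 7 around MNT, 5 around MXD1, 4 around MAX, 3 each around MYCL and MXD3, 2 around MXD4 and 0 around MYCN. The median over all protein-coding genes was 3 peaks (quartiles 1 and 5). Peaks covered 16.4% of this range at MLX, 13.2% at MNT and 6.73% at MXI1, and the median over all genes was 2.26%. From MXD1 to MGA the other genes with peaks had between 2.03% and 4.60%. In covered length, the order depended on the range. Within 50000 bp it was 17373 bp at MLX, 15447 bp at MNT, 12103 bp at MXI1 and 11438 bp at MGA. Within 25000 bp MLX had 5371 bp, less than the 12926 bp at MNT, the 7748 bp at MXI1 and the 7468 bp at MGA. These are lengths and not shares, and the range is longer around a longer gene.

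Of the 53 peaks, 10 lay at the 5′ end of a network gene, 1 at a 3′ end, 8 elsewhere in a gene body, 15 at the end of another protein-coding gene and 19 elsewhere. The 5′ end is here the outermost gene end. The body peaks therefore include those at the third start of MXI1 (5.35-fold) and at the inner starts of MGA (4.83-fold). The 5′ peaks ranged from 2.36-fold to 7.56-fold (median 5.68) and the body peaks from 3.06-fold to 9.02-fold (median 4.25). Peaks at other genes ranged from 2.87-fold to 13.4-fold (median 4.55) and the remaining 19 from 2.91-fold to 5.55-fold (median 3.85). Around MLX, 6 of the 11 peaks were at ends of other protein-coding genes only, and its own 5′ peak was also at COASY. The highest, of 13.4-fold over 4896 bp, lay at ATP6V0A1, a subunit gene of the proton pump of lysosomes. Around MGA, 5 peaks of 2.91-fold to 5.01-fold lay inside the neighbouring gene MAPKBP1. At MXI1, 5 peaks of 3.02-fold to 4.64-fold lay between 35741 and 49597 bp beyond its 3′ end, in no gene of the RefSeq table. All but the farthest were clustered up to 40276 bp, and the farthest began at 48245 bp. A peak within 50000 bp is near the gene on the chromosome and is not thereby assigned to it.

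**Figure D4:**
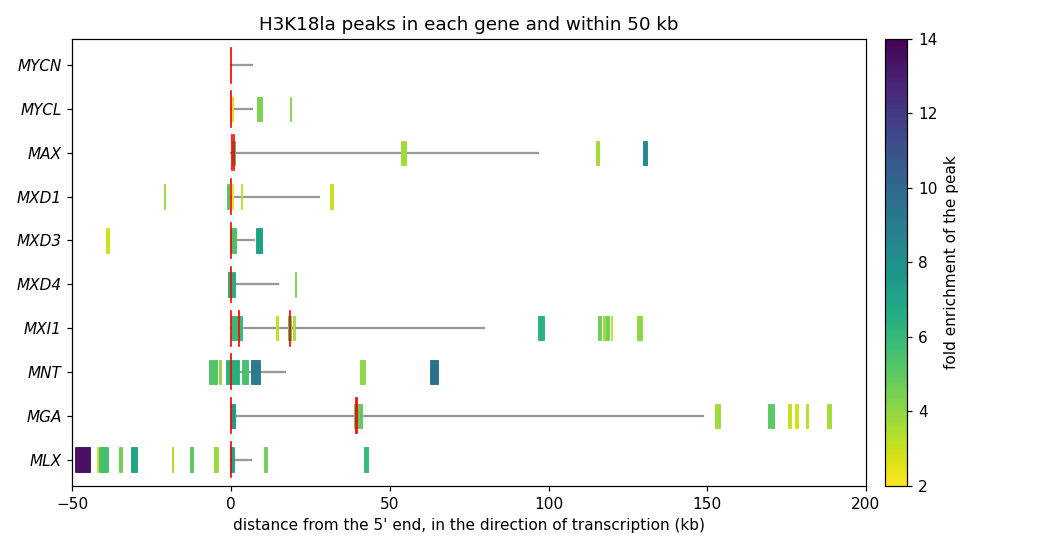
Peaks in each gene and within 50 kb, drawn as boxes coloured by fold enrichment, against distance in kb from the 5′ end in the direction of transcription. Grey lines are the genes and red ticks the annotated starts. MLX and MNT lie in stretches dense in peaks, MXI1 and MGA have peaks at inner starts, and the MYCN row holds none.

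A control background was solved from each peak's fold and -log10 p under a Poisson model with a single count per peak. The listed peaks are broad regions and the control is not known, so the values are nominal and not measured reads. The solved background had a median of 3.83 over all peaks (quartiles 2.90 and 5.07) and differed between the genes. At the highest 5′ peaks of the network it was 2.90 at MLX, 3.98 at MXD1, 4.24 at MXI1, 4.47 at MAX, 4.55 at MGA, 5.21 at MYCL, 5.72 at MNT, 6.85 at MXD3 and 6.95 at MXD4. MXD3 and MAX had nearly the same fold (5.45 and 5.44) with a -log10 q of 17.1 and 12.2. The higher background at MXD3 follows from its higher -log10 p at that fold and is not a separate observation. On chromosome 14, MAX lies between 60 and 82 Mb, where 326 peaks had a median background of 6.09, against 3.82 in the other peaks. The 5′ peak of MAX, with 4.47, and the peak within the gene, with 3.93, were below that regional median. No such median was taken around the other network genes. The part of the background in the folds of the network was not tested.

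The genes of the proteins that the network works with were taken from lists made by hand. Most of these genes had a peak within 1000 bp of either end, against 59.1% of all protein-coding genes. HDAC1, HDAC2 and WDR5 stand in more than 1 list. Of the PRC1.6 subunits around MGA and MAX, 12 of 12 had one (exact 95% interval 73.5 to 100%), from the reader gene CBX3 at 11.3-fold and the E2F partner gene TFDP1 at 11.0-fold to L3MBTL2 at 3.44-fold. PCGF6, the Polycomb ring finger particular to this complex, had 6.96-fold and E2F6 had 5.84-fold. Of the corepressors of the MXD proteins, 11 of 11 had a peak (71.5 to 100%), with SIN3A at 6.92-fold, SIN3B at 7.17-fold and the histone chaperone gene RBBP7 at 11.3-fold. Medians over the genes with a peak were 7.45-fold and 7.17-fold in these lists and 6.39-fold in the network counted at either end, against 5.66-fold over all protein-coding genes. For MXD3 the network value takes the 7.15-fold peak beyond its 3′ end, at RAB24 and PRELID1. With 5′ peaks only, the network median was 5.91-fold, against 5.59-fold over all protein-coding genes with a 5′ peak.

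Coactivators of MYC carried peaks at 10 of 10 genes (69.2 to 100%), with 9.90-fold at the scaffold gene TRRAP, 9.27-fold at the elongation kinase gene CDK9 and 3.28-fold at the acetyltransferase gene KAT5. Genes of MYC turnover had them in 7 of 7 cases (59.0 to 100%), with GSK3B, whose kinase marks MYC for degradation, at 9.70-fold and the ubiquitin ligase gene FBXW7 at 3.62-fold. Of the genes known as E-box targets of MYC, 10 of 11 had a peak (58.7 to 99.8%), with the nucleolar gene NPM1 at 11.2-fold, the polyamine synthesis gene ODC1 at 7.81-fold and none at TERT. Among other factors of the same DNA-binding class, 9 of 11 had one (48.2 to 97.7%). The intervals of these last 3 lists reached below 59.1%. The lists were made by hand with earlier results of these data known, and some share genes. No interval is therefore a test of a list against 59.1%. The sterol regulators SREBF2 (15.4-fold, in a peak also at CCDC134) and SREBF1 (11.5-fold) were highest, the MLX partners MLXIPL and MLXIP had 5.04-fold and 4.14-fold, and TFEC and MITF had none at an end. TXNIP and ARRDC4, the glucose-induced targets of MLX and MondoA, had no peak at an end or in the gene. Of the 56 different genes of these lists with a peak, 13 shared it with an end of another protein-coding gene.

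**Figure D5:**
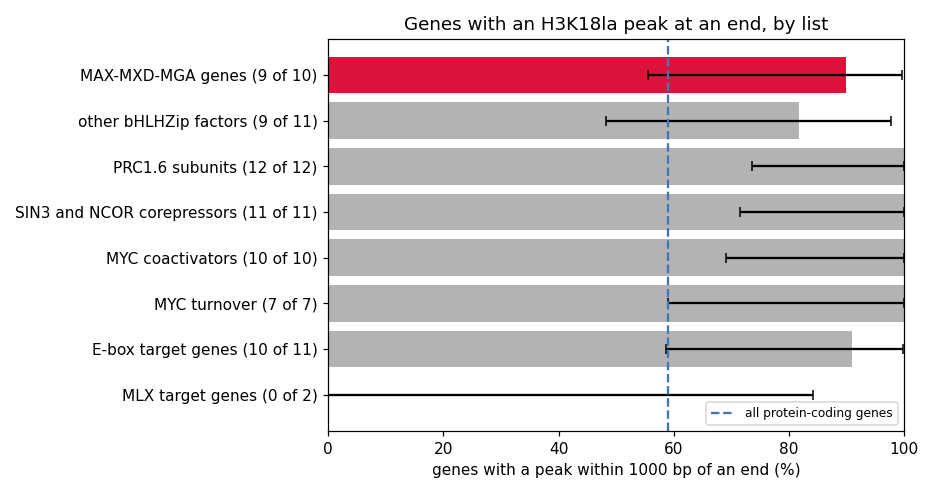
Share of genes (%) with a peak within 1000 bp of either end in the MAX-MXD-MGA genes (red) and in the lists of related genes (grey), with exact 95% binomial intervals. The dashed line is the share over all protein-coding genes, 59.1%. The lists of complexes reach 100%, and the 0 of 2 targets of MLX have an interval up to 84.2%.

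Of 6 genes chosen as markers of a lung tumour line, 4 carried a peak at one of their ends. The interval of this share, 22.3 to 95.7%, holds the 59.1% of all protein-coding genes, so the count does not check the cell type. The peaks lay at VIM (8.09-fold), at AXL (8.94-fold) and, as 1 shared peak of 6.09-fold, at KRT8 and KRT18, and at neither CDH1 nor EPCAM, although CDH1 held 1 peak inside the gene. Peaks lay at the ends of 0 of 6 genes of lymphocytes, hepatocytes, red cells and beta cells, and 1 of these, PTPRC, held a peak inside the gene.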

How the data were processed

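ChIP-seq of H3K18la in H1299 cells gave 1 deposited list of broad peaks, and the input library was not analysed here. Per the submitters' processing notes, bcl2fastq 2.17, cutadapt 1.18, Trimmomatic 0.38, Bowtie2 2.3.4.1, Picard, MACS2 (2.1.2 and 2.1.0 are listed) and ChIPseeker were used with build hg38. The caller's settings, control and depth are not given in the sources used here, and the file has no header. Per the broad peak format, the deposited values are fold enrichment (a ratio), -log10 p, -log10 q and a score, which followed from -log10 q in 99.98% of peaks. The largest q was 0.0472.

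Peaks were overlapped (1 bp or more) with RefSeq genes of GRCh38.p14, after leaving out 718 entries of alternate or unlocalised sequences. Strand and starts came from the RefSeq promoter table, which held all 10 members and 15842 coding genes. Of several peaks at an end the one of highest fold was taken. Exons, introns and untranslated regions were not assigned. Shares have exact 95% binomial intervals. The control background was solved with pseudocount 1, and its solver was tested on simulated single counts and not on broad regions. Procedures were tested on simulated data (Python 3.11.15, numpy 2.4.6, scipy 1.17.1, pandas 2.3.3, matplotlib 3.10.9). Alternatives were windows of 500 and 3000 bp, -log10 q of at least 5, fold above the median of the list (4.36), the peak's midpoint in the window, 50% of the window covered, a flank of 0 bp, a range of 25000 bp and, chosen after seeing the data, any annotated start. The rule for named genes was all members, all list genes, by name or count, and genes with an end at a member's peak. Members and lists were chosen with earlier results of these data known. The value of 1 list gene is not reported here.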

Additional observations from a re-analysis of the deposited data

How the results depend on the processing

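The 9 of 10 genes with a peak at a gene end, and likewise at the 5′ end, were again 9 with windows of 500 and 3000 bp, against 57.7% and 62.4% of protein-coding genes at an end. Both counts were 8 without MYCL at -log10 q of at least 5 (all genes at an end 52.4%) and with fold above the median of the list (45.0%), and 8 without MXI1 by the midpoint (54.8%). With 50% of the window covered it was 5 of 10, without MYCL, MAX, MXD1 and MXI1, and 41.0% of all genes then counted at either end and 41.4% at the 5′ end. In the gene and its flanks the count was 8 or 9. Counting any annotated start, an alternative chosen after seeing the data, also gave 9. The median of the highest fold at an end, 6.39, became 5.91 with 500 bp, 5.92 by the midpoint and 6.49 at -log10 q of at least 5 (8 genes in both of the last). With 500 bp MXD1 had 2.36-fold and MXD3 5.45-fold, MXD3 also had 5.45-fold by the midpoint, and with 3000 bp MYCL had 4.34-fold. The median covered length within 50000 bp, 4661 bp, was 3570 bp within 25000 bp and 3404 bp at -log10 q of at least 5. Within 25000 bp MLX had 5371 bp instead of 17373 bp and MXI1 7748 bp instead of 12103 bp, MGA had 7468 bp instead of 11438 bp under both, and at that q MXD1 had 632 bp instead of 2594 bp. No paired analysis was possible because there is 1 library per group. The depth of the libraries is unknown, so no limit can be set on the mark at MYCN.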

Other observations

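Some of the strongest peaks near the network genes lay at neighbouring genes. A peak of 9.62-fold over 2413 bp lay at the ends of TSR1 and SGSM2, 45639 bp from MNT. A peak of 8.39-fold over 1116 bp lay at RAB15, 33291 bp from MAX and higher than the peak at MAX. At MXI1 the neighbouring splicing gene SMNDC1 had 6.28-fold over 1963 bp, and at MXD4 the shared end of POLN and HAUS3 had 4.30-fold over 515 bp with a -log10 q of 12.1, where the solved background was 8.15. Of the 19 peaks that lay at no coding gene's end and outside the network genes, 7 were inside another protein-coding gene and 12 were in none.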
